A study of Mus musculus with 18 samples.

Results

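Interleukin-4 and interleukin-13 drive macrophages into the alternatively activated (M2) state, and the RNA-seq libraries described here show what that state looked like when prolyl endopeptidase was missing. PREP, the product of Prep, is an enzyme that cuts short peptides after proline. The members are the 3 Prep-/- M2 libraries and the 3 Prep+/- M2 libraries, 6 of the 18 libraries of the series, chosen by the genotype and treatment in their labels and compared across all genes. The cells were primary bone marrow-derived macrophages (BMDMs), grown from marrow of Prep-/- mice and their heterozygous littermates on a C57BL6/J background for 7 days with M-CSF (50 ng/ml), and then given 20 ng/ml IL-4 with 20 ng/ml IL-13 for 24 h. The controls therefore carry 1 disrupted Prep allele, and there are no wild-type cells here. The other 12 libraries hold the same genotypes unstimulated (M0) or given 50 ng/ml LPS for 24 h (M1), and are used only to ask whether the knockout effect in M2 differed from theirs. The age and sex of the mice and what a replicate number marks were not given in the sources used here.

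IL-4 and IL-13 act through receptors that share the IL-4 receptor alpha chain and activate the transcription factor STAT6. In mouse macrophages this pathway turns on genes such as Arg1 (arginase, which breaks down arginine), Mrc1 (the mannose receptor), Chil3 (a chitinase-like secreted protein) and Retnla (a resistin-like secreted protein). Macrophages also carry a large set of lysosomes, the acidic compartments in which cathepsins and other hydrolases digest what the cell takes up, and marrow macrophages in M-CSF continue to divide in culture.

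The M2 libraries held between 19560715 and 21685097 counts, and 12021 of 16314 genes passed the filter on low counts and were tested. Values below are normalized counts, that is, counts scaled for library size with TMM factors to the average library, given in the order of replicates 1, 2 and 3. A gene was called when its Benjamini-Hochberg adjusted p in edgeR's quasi-likelihood test was under 0.05 and its fold change over 1.5. These are bulk cultures, in which fewer cells of a type and less RNA per cell cannot be told apart. Genes that define macrophages were abundant, with a summed level of 10810 to 12960 CPM over 10 markers in Prep+/- and 14690 to 20420 CPM in Prep-/- libraries. Of these 10 markers 2 were called higher and none lower, with a median log2 fold change of 0.20. The sums were under 5 CPM for B cell, T and NK cell, dendritic cell, erythroid, mast cell and hepatocyte markers in every M2 library, while granulocyte markers summed to 59.53 to 82.41 CPM in Prep+/- and 134.0 to 315.8 CPM in Prep-/-. Stromal markers summed to 2.387, 1.971 and 17.44 CPM in Prep+/- and 2.163, 7.397 and 7.717 CPM in Prep-/- replicates 1, 2 and 3.

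One M2 library stood apart. Prep-/- M2 replicate 3 differed from the other Prep-/- libraries by a median absolute log2 difference of 0.267 and 0.289. Replicates 1 and 2 differed by 0.127 and the Prep+/- libraries by 0.121 to 0.139. Prep-/- M2 replicate 3 was about as near to Prep+/- replicate 3, at 0.268, as to its own genotype. It was over 2-fold above the mean of the other Prep-/- libraries in 390 and over 2-fold below that mean in 137 of 9419 genes with at least 5 CPM. Markers of osteoclasts, bone-resorbing relatives of macrophages, summed to 423.7 CPM in it, against 132.1 and 116.8 CPM in the other Prep-/- and 77.95 to 129.3 CPM in the Prep+/- libraries, and their part in the results was not tested. Values without it are given where leaving it out ended the call of a gene described or changed the balance of higher and lower genes in a list.

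Prep itself was low in every knockout library. It counted 799, 810.4 and 851 in Prep+/- and 68.1, 50.8 and 60.9 in Prep-/- M2 BMDMs, with no overlap (log2 fold change -3.77 ± 0.19 SE, edgeR adjusted p = 2.48e-09). The gene is protein-coding and lies at chr10:44943130-45043294 on the plus strand of GRCm39 with 2 annotated genes opposite, and the deleted stretch was not given in the sources used here. Of 11 tested members of the prolyl peptidase family, 9 were not called. Prcp, a lysosomal carboxypeptidase that also cuts after proline, rose from 2019.7, 2097 and 2072 in Prep+/- to 4944, 4536 and 3507 in Prep-/- (log2 fold change 1.07 ± 0.11 SE, edgeR adjusted p = 1.06e-05). Prepl, a related serine hydrolase, counted 364, 364 and 363 in Prep+/- and 344, 385 and 469.7 in Prep-/-, and the groups overlapped.

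In M2, 766 genes were higher in Prep-/- BMDMs (6.37% of the genes tested) and 1181 were lower (9.82%), so that 16.2% were called in either direction. Counts in the gene lists below stand beside these shares. All Prep-/- libraries lay above all Prep+/- libraries in 21.2% of the genes tested and below them in 20.9%, so a lack of overlap was common. The fold change passed 4 in 108 of the higher and 169 of the lower genes, and over all genes the log2 fold change had a median of 0.03. Without Prep-/- replicate 3, 1046 genes were higher and 1581 lower, and 90.2% of the genes called with it remained called in the same direction. The plot of fold change against abundance shows calls at every level, from rare transcripts to the most abundant in the cell.

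**Figure D1:**
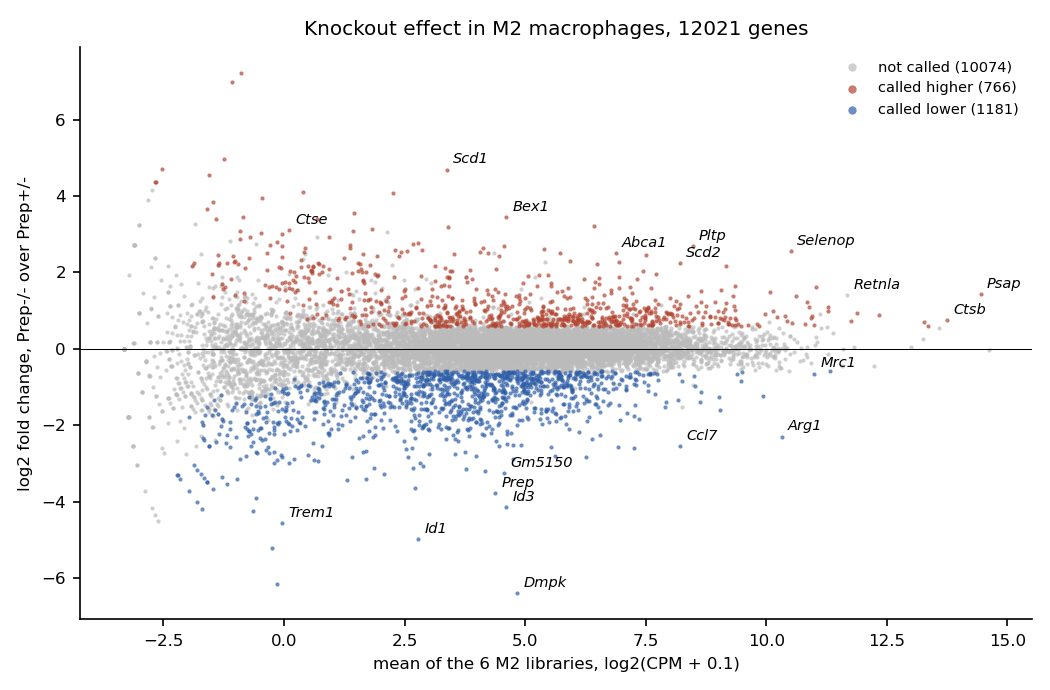
The knockout effect in M2 for 12021 genes, with the mean abundance of the 6 M2 libraries (log2 of CPM plus 0.1) on the x axis and the log2 fold change of Prep-/- over Prep+/- on the y axis. Genes called higher (766) are red, genes called lower (1181) are blue and the rest are grey, and Psap and Ctsb sit above the line at the right end while Dmpk, Id1 and Prep lie far below it.

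The abundant genes with the largest gains in CPM encode lysosomal and secreted proteins. Psap encodes prosaposin, the precursor of activators that help lysosomal enzymes degrade sphingolipids, and it rose from 245419, 266852 and 255224 in Prep+/- to 789246, 676400 and 603893 in Prep-/- (log2 fold change 1.43 ± 0.16 SE, edgeR adjusted p = 1.74e-05). Lyz2, the lysozyme of macrophages, rose from 169315, 171904 and 137604 in Prep+/- to 310683, 268562 and 202013 in Prep-/-, and Gpnmb, a transmembrane glycoprotein of lysosome-rich macrophages, from 70773, 90856 and 71956 in Prep+/- to 140495, 122861 and 165183 in Prep-/-. Genes in this ranking were taken only from called genes without overlap between the genotypes. The separation of their libraries was therefore set by the choice. Lyz2 was not called without Prep+/- replicate 3 (edgeR adjusted p = 0.0588) or Prep-/- replicate 1 (edgeR adjusted p = 0.067). Selenop, which encodes the selenium carrier selenoprotein P, rose from 9913, 9852 and 7397 in Prep+/- to 70019, 59416 and 29262 in Prep-/- (log2 fold change 2.55 ± 0.25 SE, edgeR adjusted p = 7.94e-06).

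Lysosomal proteases rose as a group. Of 18 tested cathepsins and related proteases, 12 rose and none fell, with a median log2 fold change of 0.70 against 0.03 over all genes, and all 18 had a positive fold change. Ctsb encodes cathepsin B, a cysteine protease, and lies at chr14:63358384-63383372 on the plus strand, where Fdft1 overlaps it on the other strand. It counted 212118, 232039 and 206482 in Prep+/- and 398930, 339507 and 361384 in Prep-/- (log2 fold change 0.76 ± 0.13 SE, edgeR adjusted p = 0.000417). Ctss, which encodes the cathepsin that trims the invariant chain of MHC class II, counted 58711, 53189 and 52287 in Prep+/- and 115756, 93529 and 105890 in Prep-/- (log2 fold change 0.94 ± 0.16 SE, edgeR adjusted p = 0.000555). Ctsk, the cathepsin best known for collagen breakdown by osteoclasts, was rarer and counted 423, 518 and 459.6 in Prep+/- and 1039, 946 and 969.8 in Prep-/- (log2 fold change 1.08 ± 0.16 SE, edgeR adjusted p = 0.000166). In each of these the lowest Prep-/- library lay above the highest Prep+/- library. Ctsd, the aspartic protease cathepsin D, also showed no overlap, with 181041, 176880 and 170278 in Prep+/- and 286365, 226095 and 280569 in Prep-/- (log2 fold change 0.59 ± 0.14 SE, edgeR adjusted p = 0.00576), but its fold change stood just above the limit of 1.5, and it slipped below that limit, at log2 fold changes of 0.52 to 0.58, with other filters, with a replicate block and without any 1 of Prep+/- replicates 2 and 3 and Prep-/- replicates 1 and 3. Ctsh, an aminopeptidase, rose from 1761, 1763 and 1537 in Prep+/- to 6030.4, 4712 and 3209.7 in Prep-/-, and Ctse, a rare aspartic protease, from 4.51, 6.21 and 1.89 in Prep+/- to 53.2, 41.3 and 17.2 in Prep-/-. Lgmn (legumain), Ctsz, Ctsc, Ctsf and Scpep1 were the remaining called members besides Prcp. The count of 12 fell to 7 without Prep-/- replicate 1 and was 11 without replicate 3. Ctsb, Ctsd, Ctsk and Ctss are genes that the study itself plotted from these samples, so they are not independent evidence of the direction of the list.

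The other lysosomal lists moved the same way with smaller changes. Among 33 glycosidases, sulfatases and lipases 10 rose and 1 fell (median log2 fold change 0.33), and among 29 membrane and proton pump genes 8 rose and none fell (median 0.32, all 29 positive). Hexa, a subunit of beta-hexosaminidase, rose from 21231, 21157 and 18261 in Prep+/- to 42394, 36693 and 30589 in Prep-/-, and Galc, which degrades galactosylceramide, from 1835, 2082 and 1682 in Prep+/- to 3688, 3495 and 2972 in Prep-/-. Arsb, a sulfatase, fell from 968, 1059.9 and 1008 in Prep+/- to 444, 616 and 551 in Prep-/-. Lamp1, a major protein of the lysosomal membrane, rose from 55254, 58850 and 52190 in Prep+/- to 106300, 95734 and 74538 in Prep-/-, and Slc11a1, a metal transporter of phagosomes, from 3527, 3705 and 3734 in Prep+/- to 7137, 7014 and 6585 in Prep-/-. Atp6v0d2, a proton pump subunit induced by IL-4, rose from 7693, 9111 and 8787 in Prep+/- to 19192, 15113 and 21539 in Prep-/- (log2 fold change 1.13 ± 0.33 SE, edgeR adjusted p = 0.0188), and was not called without Prep+/- replicate 1 or 2 or Prep-/- replicate 1 (edgeR adjusted p = 0.0502 to 0.0671).

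The promoters of the 4 plotted cathepsin genes are shown because these genes moved together, each from 250 bases before to 50 bases after the annotated start of the canonical transcript, in GRCm39. Capitals mark CACGTG, the E-box that TFEB-type factors can bind, or GAGGAAGT and its reverse complement, a word bound by PU.1.
Ctsb, chr14:63359627-63359926, plus strand: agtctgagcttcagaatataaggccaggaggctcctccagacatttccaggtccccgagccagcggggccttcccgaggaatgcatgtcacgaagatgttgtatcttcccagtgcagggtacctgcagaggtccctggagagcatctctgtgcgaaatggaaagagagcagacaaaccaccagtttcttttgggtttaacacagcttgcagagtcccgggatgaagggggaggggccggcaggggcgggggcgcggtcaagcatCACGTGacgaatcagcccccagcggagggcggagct
Ctsd, chr7:141941726-141942025, minus strand: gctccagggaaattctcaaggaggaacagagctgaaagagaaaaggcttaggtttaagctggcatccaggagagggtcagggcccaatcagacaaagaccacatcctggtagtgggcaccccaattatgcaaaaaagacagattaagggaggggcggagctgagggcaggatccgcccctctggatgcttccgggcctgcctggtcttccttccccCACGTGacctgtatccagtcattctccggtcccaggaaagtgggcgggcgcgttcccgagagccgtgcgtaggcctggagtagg
Ctsk, chr3:95405994-95406293, plus strand: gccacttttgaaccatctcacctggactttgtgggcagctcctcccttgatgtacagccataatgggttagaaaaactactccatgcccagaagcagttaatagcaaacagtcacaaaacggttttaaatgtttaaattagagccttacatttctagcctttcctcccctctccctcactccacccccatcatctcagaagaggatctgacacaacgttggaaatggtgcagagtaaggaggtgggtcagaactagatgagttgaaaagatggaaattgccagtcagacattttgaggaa
Ctss, chr3:95433839-95434138, plus strand: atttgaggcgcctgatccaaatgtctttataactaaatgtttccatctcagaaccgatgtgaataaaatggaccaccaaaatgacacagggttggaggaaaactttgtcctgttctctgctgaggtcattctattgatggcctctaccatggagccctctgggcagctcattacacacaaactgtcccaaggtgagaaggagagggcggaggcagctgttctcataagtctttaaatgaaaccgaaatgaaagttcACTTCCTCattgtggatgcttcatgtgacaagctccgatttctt
Ctsb and Ctsd each hold 1 CACGTG, Ctss holds 1 match to the PU.1 word, and Ctsk holds neither. Across 11693 promoters with a position, CACGTG on both strands was present in 10.2%, in 9.95% of the promoters of genes called higher in M2 and in 21.5% of 79 promoters of the 3 lysosomal lists. The PU.1 word was present in 3.2% of all promoters, in 3.36% of those of higher genes and in 2.58% of those of lower genes. GGGCGG, the word of SP factors, was in 58.3%, 52.6% and 62.6% of these sets, and the STAT6 word, a palindrome of TTC and GAA around any 4 bases, in 6.09%, 7.53% and 5.93%. By gene list, the PU.1 word was most frequent in alternative activation genes, at 18.2% of 33 promoters. It was in 5.56% of 18 protease promoters, 3.8% of the 79 lysosomal promoters, 5% of 40 mitosis promoters and 2.27% of 44 replication promoters. These shares describe letters in a window, with no test of binding.

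Genes of alternative activation moved in both directions. Of 33 tested members 11 rose and 4 fell (median log2 fold change 0.49). Arg1 fell in all Prep-/- libraries, with 48436, 45335 and 41741 in Prep+/- and 7059, 10010 and 10471 in Prep-/- (log2 fold change -2.30 ± 0.26 SE, edgeR adjusted p = 1.79e-05). Mrc1 also fell without overlap, from 50825, 57730 and 49428 in Prep+/- to 33911, 40849 and 25610 in Prep-/- (log2 fold change -0.65 ± 0.17 SE, edgeR adjusted p = 0.00939), and its fold change no longer reached 1.5 without Prep-/- replicate 3 (log2 fold change -0.48). Chil3 rose, with 21032, 25473 and 19115 in Prep+/- and 85085, 64644 and 50066 in Prep-/- (log2 fold change 1.61 ± 0.31 SE, edgeR adjusted p = 0.00133), although its transcript is 94.3% identical to that of Chil4, so that reads of the pair may be shared. Retnla counted 44054, 42653 and 27738 in Prep+/- and 129537, 103427 and 69548 in Prep-/-. All Prep-/- libraries lay above all Prep+/- libraries, as in 21.2% of all genes, but the main test did not call Retnla (edgeR adjusted p = 0.0562). The replicate block, taken up after the pairing was seen in M2, did call it (log2 fold change 1.39, edgeR adjusted p = 0.00357). Without a block, Retnla was called in the M2 libraries alone (edgeR adjusted p = 0.0127), without Prep-/- replicate 3 (edgeR adjusted p = 0.0225) and with no filter on low counts (edgeR adjusted p = 0.0479). The other alternatives, among them DESeq2 and the omission of any other M2 library, did not call it. These 4 genes were plotted by the study from these samples.

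Further members of the list also moved in both directions. Pdcd1lg2, which encodes the checkpoint ligand PD-L2, rose from 301, 351 and 259.5 in Prep+/- to 1192, 1026 and 787 in Prep-/-. Ccl24, an eosinophil-attracting chemokine, rose from 143, 186 and 174 in Prep+/- to 748, 610.4 and 784 in Prep-/- (log2 fold change 2.09 ± 0.35 SE, edgeR adjusted p = 0.000457). Fn1, the matrix protein fibronectin, rose from 1309, 1834 and 1323 in Prep+/- to 5243, 4433 and 4077 in Prep-/- (log2 fold change 1.62 ± 0.38 SE, edgeR adjusted p = 0.00527). Cdh1, the adhesion protein E-cadherin, fell from 570.1, 499 and 580.4 in Prep+/- to 55.4, 73.0 and 335 in Prep-/-, with replicate 3 nearer to the controls than the others, and was not called in the M2 libraries alone (edgeR adjusted p = 0.0744). Of 13 tested genes of the IL-4 and IL-13 receptors and their signalling, Il13ra1 (counts 27.1, 21.3 and 21.7 in Prep+/- and 43.7, 46.5 and 75.1 in Prep-/-) and Il2rg (counts 1672, 1845 and 1889 in Prep+/- and 2997, 2659 and 3228 in Prep-/-), which encode receptor chains, rose and none fell. Of these genes the plot of counts by library shows Fn1, with Arg1, Mrc1, Chil3 and Retnla, beside the cathepsins.

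**Figure D2:**
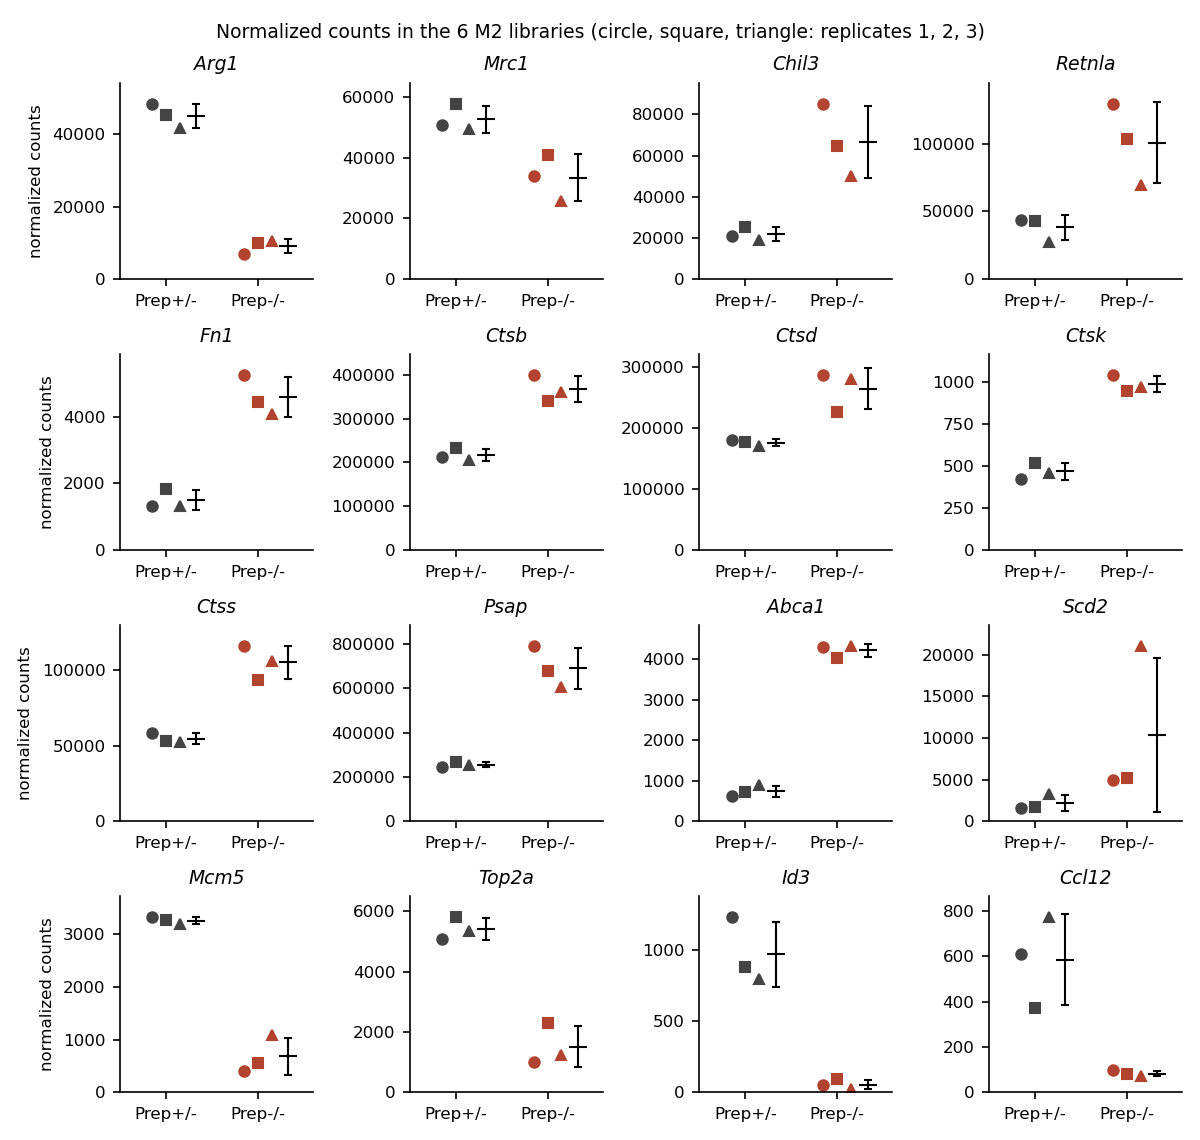
Normalized counts of 16 genes in the 6 M2 libraries, each panel on its own linear axis from 0. Grey symbols are Prep+/- and red symbols Prep-/- libraries (circle, square and triangle for replicates 1, 2 and 3), and bars give the mean and SD (n = 3). No panel shows overlap between genotypes, which was a condition of choice for some of these genes, such as Psap and Ccl12. Replicate 3 of Prep-/- lies far above the others for Scd2.

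Inflammatory genes typical of M1 were low in these cultures. Nos2, the inducible nitric oxide synthase, counted 3.61, 0 and 13.2 in Prep+/- and 28.7, 3.17 and 3.04 in Prep-/-. Il6 stayed at or under 3 counts in every M2 library. Il1b counted 14.4, 25.7 and 11.3 in Prep+/- and 8.52, 5.29 and 8.12 in Prep-/-. Tnf counted 66.8, 72.8 and 194 in Prep+/- and 55.4, 36.0 and 280.0 in Prep-/-, with replicate 3 the highest in both genotypes. None of the 4 was called.

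Genes of cell division fell almost as a block. Of 44 tested DNA replication genes 37 fell and none rose (median log2 fold change -1.51), and of 40 mitosis genes 38 fell and none rose (median -1.50). Homologous recombination and Fanconi repair had 20 of 30 lower (median -1.26), and G1 cyclins, CDK inhibitors and E2F factors 11 lower and 2 higher of 22, with none higher without Prep+/- replicate 2. With any 1 M2 library left out, 37 or 38 replication and 34 to 39 mitosis genes were lower. Rrm2, a subunit of the enzyme that makes deoxynucleotides, fell from 2948, 2771 and 2884 in Prep+/- to 165, 322 and 717 in Prep-/- (log2 fold change -2.83 ± 0.47 SE, edgeR adjusted p = 0.000368). Tk1 (thymidine kinase) fell from 2018, 1757 and 1704 in Prep+/- to 167, 324 and 289 in Prep-/-. In both, the knockout libraries lay far below the controls, and replicate 1 was the lowest. Top2a, the topoisomerase of dividing cells, fell from 5068, 5792 and 5355 in Prep+/- to 1001, 2283 and 1246 in Prep-/-, and Ndc80, a kinetochore protein, from 1097, 1149.5 and 1063 in Prep+/- to 227, 440.0 and 251 in Prep-/-. Brca1, which acts in recombination repair, fell from 621, 676 and 635 in Prep+/- to 117, 183 and 179 in Prep-/-.

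Among regulators of the cycle, Ccne2 (cyclin E2) fell from 733, 578 and 729.6 in Prep+/- to 24.5, 24.3 and 171 in Prep-/-, and Ccnd1 (cyclin D1) from 5437, 4761 and 6545 in Prep+/- to 237, 303 and 2198 in Prep-/- (log2 fold change -2.61 ± 0.62 SE, edgeR adjusted p = 0.00567), both with replicate 3 nearest to the controls. The fit of the M2 libraries alone did not call Ccnd1 (edgeR adjusted p = 0.0615). E2f7, a repressor of the E2F family, fell from 228, 306 and 249 in Prep+/- to 20.2, 26.4 and 50.7 in Prep-/- (log2 fold change -3.00 ± 0.33 SE, edgeR adjusted p = 1.52e-05). Cdkn2b, a CDK inhibitor, counted 19.8, 16.9 and 34.9 in Prep+/- and 37.3, 21.2 and 145 in Prep-/-. It was called higher with all libraries, but not without Prep-/- replicate 3 (log2 fold change 0.31) nor without Prep+/- replicate 1 or 2 (1.39 and 1.28).

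Promoters of replication genes often hold words bound by E2F factors. The words TTTCCCGC or TTTGGCGC were present, on either strand, in 2.93% of all promoters, in 6.02% of those of genes called lower, in 1.88% of those called higher and in 25% of the 44 replication promoters. Neither Rrm2 nor Tk1 held one. The search was then widened, after that was seen, to TTTCGCGC and TTTGCCGC as well, which gave 3.93%, 7.65%, 2.69% and 27.3% in the same order and still no match in either. Rrm2 is shown as the largest fall, and Cdc6, which loads the replicative helicase, because it had the largest fall among replication genes that do hold a match (capitals).
Rrm2, chr12:24757561-24757860, plus strand: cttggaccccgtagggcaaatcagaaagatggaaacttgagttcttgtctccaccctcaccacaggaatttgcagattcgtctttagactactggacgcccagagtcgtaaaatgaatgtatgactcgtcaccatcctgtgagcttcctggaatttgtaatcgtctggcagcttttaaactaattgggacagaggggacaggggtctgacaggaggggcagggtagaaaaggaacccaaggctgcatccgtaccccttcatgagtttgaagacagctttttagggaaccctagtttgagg
Cdc6, chr11:98798377-98798676, plus strand: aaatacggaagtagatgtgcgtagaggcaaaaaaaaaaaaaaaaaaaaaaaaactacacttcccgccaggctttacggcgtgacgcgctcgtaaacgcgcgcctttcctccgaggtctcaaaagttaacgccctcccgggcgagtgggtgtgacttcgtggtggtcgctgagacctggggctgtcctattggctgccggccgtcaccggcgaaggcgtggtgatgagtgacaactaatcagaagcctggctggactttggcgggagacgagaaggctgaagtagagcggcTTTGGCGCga
Cdc6 fell from 368, 348 and 369 in Prep+/- to 29.8, 44.4 and 136 in Prep-/-. The annotated start may not be the one used in these cells. CCAAT, the word of NFY, was present in 39.5% of all promoters and in 67.5% of the 40 mitosis promoters.

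**Figure D3:**
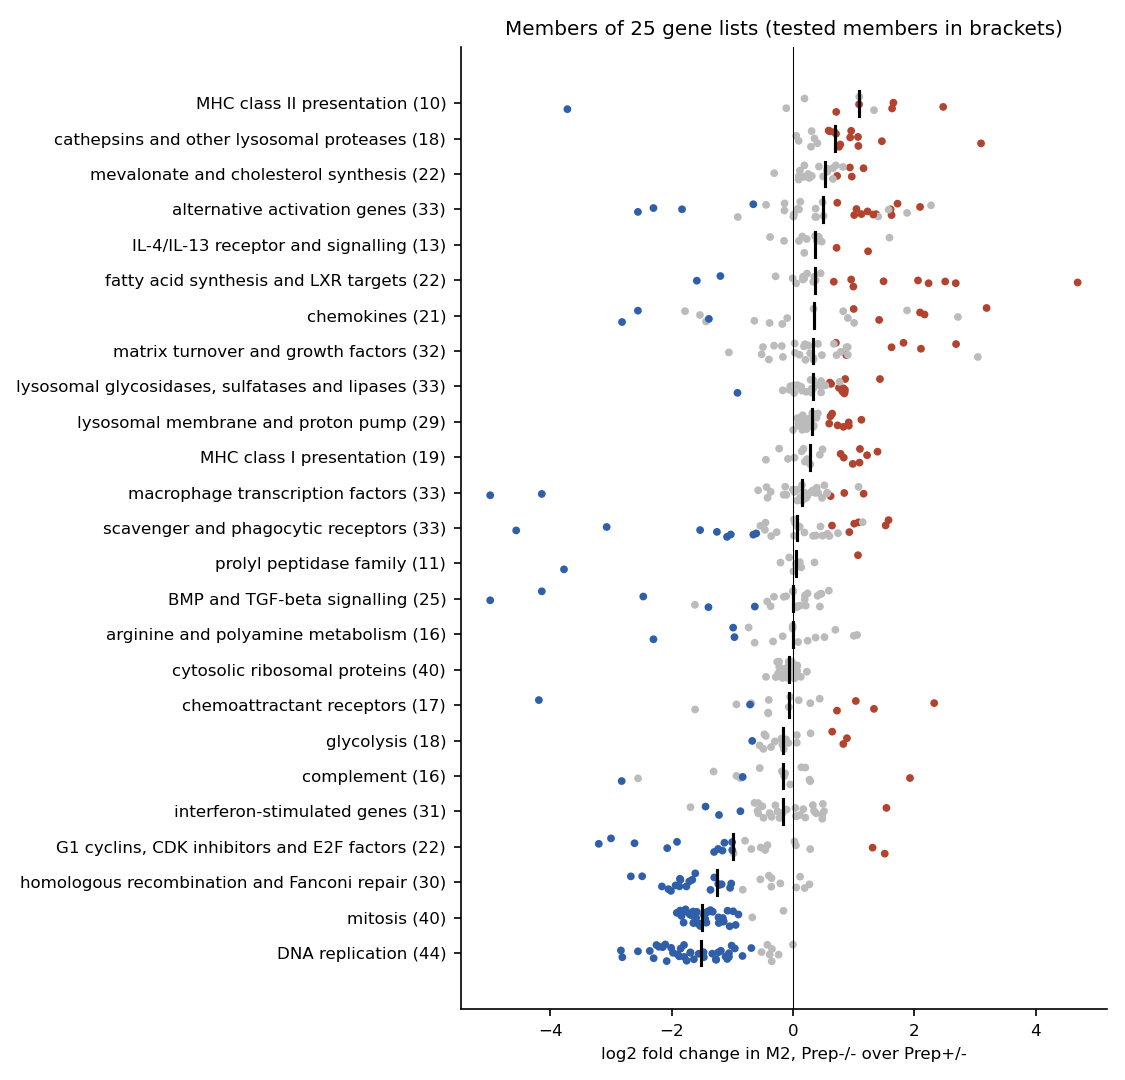
Log2 fold change in M2 (x axis) of the tested members of 25 gene lists (y axis, number tested in brackets). Each point is a gene, red when called higher, blue when called lower and grey otherwise, and black bars are list medians, which run from 1.09 for MHC class II presentation to -1.51 for DNA replication.

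The largest falls by fold included regulators of differentiation. Id1 and Id3 encode inhibitors of basic helix-loop-helix factors that respond to bone morphogenetic proteins. Id1 counted 302, 152 and 384 in Prep+/- and 6.39, 2.12 and 17.2 in Prep-/- (log2 fold change -4.99 ± 0.71 SE, edgeR adjusted p = 0.000115), and Id3 1229, 879 and 798 in Prep+/- and 50.0, 91.0 and 24.3 in Prep-/- (log2 fold change -4.14 ± 0.41 SE, edgeR adjusted p = 7.66e-06). Smad6, which dampens BMP signals, counted 42.4, 39.9 and 69.8 in Prep+/- and 7.45, 10.6 and 9.13 in Prep-/-, and Bmpr1a, a BMP receptor, 26.2, 31.1 and 19.8 in Prep+/- and 4.26, 9.52 and 15.2 in Prep-/-. Of 25 tested BMP and TGF-beta genes 5 fell and none rose, with a median of 0.00, and 3 fell without Prep+/- replicate 1 or Prep-/- replicate 1. Bmpr1a lost its call with the replicate block (log2 fold change -1.43, edgeR adjusted p = 0.0644), in the M2 libraries alone (-1.39, edgeR adjusted p = 0.0665) and without any 1 of replicates 1 and 2 of either genotype (-1.38 to -1.05).

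Dmpk, a protein kinase gene at chr7:18817406-18827746, had the largest fall of all genes above 5 CPM, from 1131, 1356 and 1070.3 in Prep+/- to 9.58, 22.2 and 10.1 in Prep-/- (log2 fold change -6.40 ± 0.29 SE, edgeR adjusted p = 1.66e-09). Its neighbour Dmwd, 700 bases away, fell from 249.9, 189 and 276 in Prep+/- to 21.3, 12.7 and 47.7 in Prep-/-, whereas Six5 on the other side (439 bases) was rare, at 12.3 to 21.3 normalized counts in all M2 libraries, and was not called. Ctnnd2, a catenin, fell from 259.8, 207 and 296 in Prep+/- to 1.06, 15.9 and 42.6 in Prep-/-, and Ch25h, which makes 25-hydroxycholesterol, from 466, 332 and 764 in Prep+/- to 69.2, 42.3 and 62.9 in Prep-/-. Around Prep itself, 3 of 28 tested genes within 5 Mb were called (10.7%, against 16.2% of all genes). They were Prdm1 (higher, 123, 153 and 126 in Prep+/- and 434, 369 and 206 in Prep-/-), Cd24a and Cep57l1 (lower). Cd24a kept its call in 1 of the 6 fits with an M2 library left out, that without Prep-/- replicate 3.

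Receptors for particles and lipids were split. Of 33 scavenger and phagocytic receptors 6 rose and 8 fell. Marco, a scavenger receptor for bacteria, fell from 293, 353 and 176 in Prep+/- to 50.0, 38.1 and 10.1 in Prep-/-, and Msr1, the class A scavenger receptor, from 7707, 7337 and 7439 in Prep+/- to 1991, 2105 and 3686 in Prep-/- (log2 fold change -1.53 ± 0.19 SE, edgeR adjusted p = 4.02e-05). Trem1, an amplifier of inflammation, was at or under 3 counts in every Prep-/- library and at least 11.4-fold lower. Stab2, a hyaluronan receptor, rose from 60.4, 65.7 and 52.9 in Prep+/- to 200.2, 190.4 and 143 in Prep-/-.

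Of 22 lipid genes, the members of the list of fatty acid synthesis and LXR targets, 9 rose and 2 fell, and 7 rose and 4 fell without Prep-/- replicate 3. Abca1, which exports cholesterol, rose from 613, 731 and 890.0 in Prep+/- to 4318, 4048 and 4327 in Prep-/- (log2 fold change 2.51 ± 0.20 SE, edgeR adjusted p = 1.23e-06), and Pltp, a phospholipid transfer protein, from 2151, 2039.8 and 1893 in Prep+/- to 15536, 11835 and 11603 in Prep-/-. Scd1, a desaturase, counted 15.3, 6.21 and 27.4 in Prep+/- and 224, 139 and 896 in Prep-/- (log2 fold change 4.69 ± 0.64 SE, edgeR adjusted p = 9.05e-05), and Scd2 1578, 1728 and 3313 in Prep+/- and 4902, 5200.1 and 20994 in Prep-/-, each with replicate 3 several times above the other knockouts. Fads2, a further desaturase, was called higher with all libraries and not without replicate 3 (log2 fold change 0.62, edgeR adjusted p = 0.131). Mevalonate and cholesterol synthesis had 4 of 22 members higher and none lower, but without replicate 3 it had 2 higher and 3 lower, and without Prep-/- replicate 2 it had 8 higher. Its median difference to the control mean, in log2 of CPM plus 0.5, was 0.076, 0.038 and 1.134 in the 3 Prep-/- libraries, so the rise rests on that library.

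In other lists the count of lower members changed with replicate 3. Matrix turnover and growth factors had 6 of 32 members higher and none lower, and 6 higher and 6 lower without it. Vegfa, an angiogenic factor, counted 87.5, 72.8 and 242 in Prep+/- and 560.0, 351 and 1665 in Prep-/-. Glycolysis had 3 higher and 1 lower of 18, against 2 higher and 7 lower without it and 1 higher without Prep+/- replicate 1 or 2, and arginine and polyamine metabolism 3 lower of 16, against 3 higher and 6 lower without it. With the replicate block over all libraries, glycolysis had 2 lower members and arginine metabolism 1 higher and 5 lower. Chemoattractant receptors had 4 higher and 2 lower of 17, against 4 higher and 5 lower without it. The lysosomal and cell division lists kept their direction in all 3 libraries, as the plot by library shows.

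**Figure D4:**
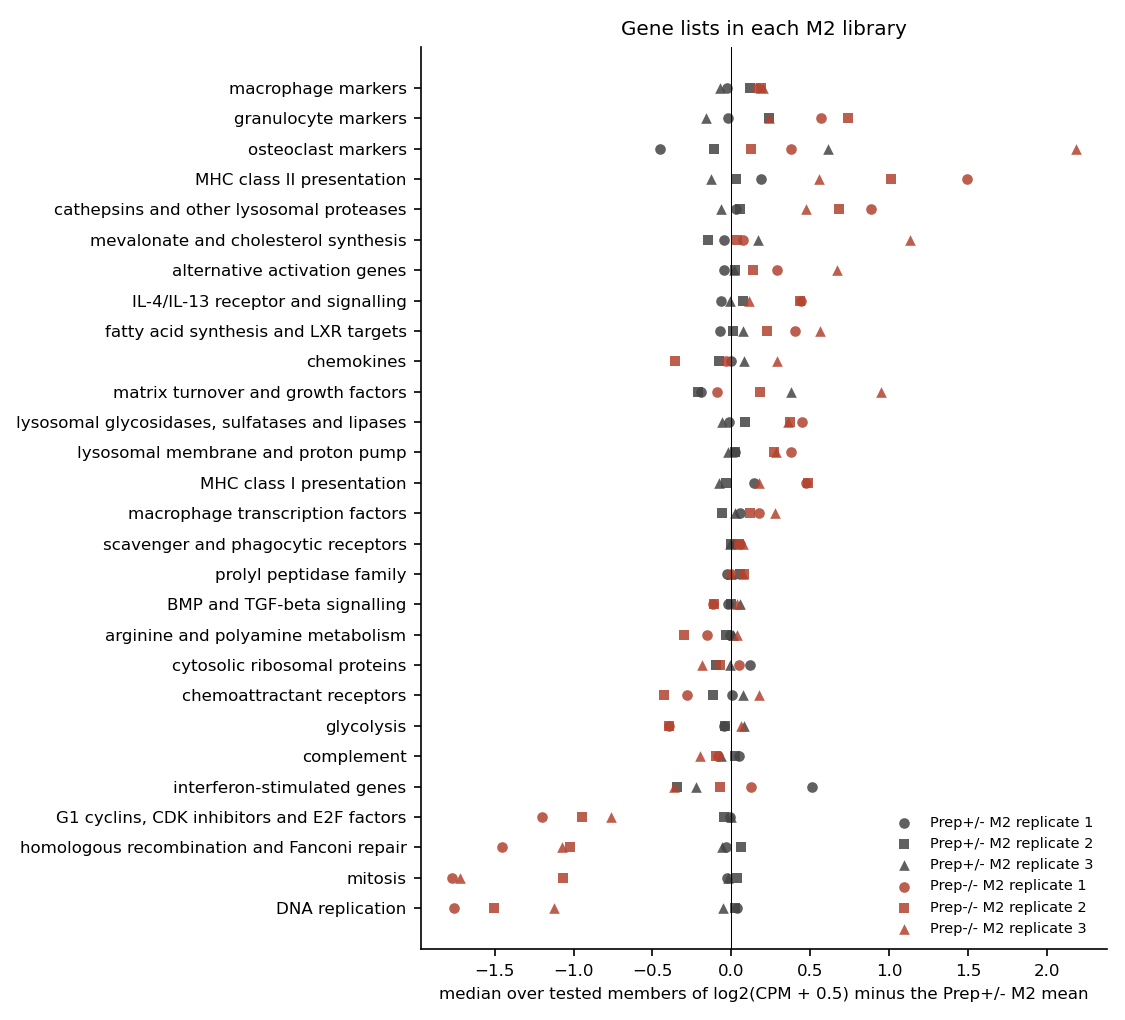
Median over the tested members of each list of log2(CPM + 0.5) minus the Prep+/- M2 mean (x axis), for 25 pathway and 3 marker lists (y axis). Each symbol is a library, grey for Prep+/- and red for Prep-/-, with circle, square and triangle for replicates 1 to 3, and the red triangle stands apart at 1.134 for mevalonate synthesis and at 2.183 for osteoclast markers.

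Among antigen presentation genes, 5 of 10 MHC class II genes rose and 1 fell (median log2 fold change 1.09), and 7 of 19 class I genes rose and none fell. The class II count was 3 without any 1 of the Prep+/- replicates or without Prep-/- replicate 1, and 5 without Prep-/- replicate 3. Ciita, the master activator of class II genes, rose from 76.7, 71.9 and 71.7 in Prep+/- to 497, 504 and 224 in Prep-/- (log2 fold change 2.47 ± 0.46 SE, edgeR adjusted p = 0.000873), and Cd74, the invariant chain, from 7121, 6789.7 and 6328 in Prep+/- to 26401, 21684 and 14612 in Prep-/- (log2 fold change 1.63 ± 0.48 SE, edgeR adjusted p = 0.0201). Cd74 was not called in the fits that gave 3 (log2 fold change 1.42 to 1.68, edgeR adjusted p = 0.0536 to 0.0749), nor was H2-Ab1, a class II chain called with all libraries (1.35 to 1.82, edgeR adjusted p = 0.0649 to 0.13). B2m, the shared light chain of class I, rose from 29394, 22582 and 24589 in Prep+/- to 62581, 47020 and 53928 in Prep-/- (log2 fold change 1.09 ± 0.15 SE, edgeR adjusted p = 7.97e-05). The single fall was H2-Ob, at or under 3 counts in every Prep-/- library, which was not called without Prep+/- replicate 3 (edgeR adjusted p = 0.0503). Of 31 interferon-stimulated genes, 1 rose and 3 fell, among them Oas3, an antiviral synthetase, from 1256, 659 and 519 in Prep+/- to 374, 398 and 274 in Prep-/-. The shares of 3.23% higher and 9.68% lower compare with 6.37% and 9.82% over all genes. Without Prep+/- replicate 1, whose Oas3 count was the highest, 2 rose and 1 fell, and Oas1g and Oasl1 lost their calls (log2 fold change -0.53, edgeR adjusted p = 0.0734, and -0.88, edgeR adjusted p = 0.25). Chemokines had 5 higher and 3 lower of 21, and 5 higher and 5 lower without Prep-/- replicate 3. Ccl6 rose from 4689.8, 4449.9 and 4109 in Prep+/- to 24134, 18361 and 16931 in Prep-/- (log2 fold change 2.17 ± 0.19 SE, edgeR adjusted p = 4.42e-06), Ccl8 from 45.1, 47.0 and 38.7 in Prep+/- to 468, 222 and 505 in Prep-/-, and Ccl7, which attracts monocytes, fell from 11121, 6910.5 and 13980 in Prep+/- to 818, 1087 and 3541 in Prep-/-. The 40 cytosolic ribosomal protein genes had a median log2 fold change of -0.07.

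Whether the knockout effect in M2 differed from that in the other states was tested as a difference of effects, and the 2 effects in each difference share no library. Prep-/- M0 replicate 3, which enters the M0 effect, also stood apart. A chi-square of counts per degree of freedom was 107 and 114 between it and the other Prep-/- M0 libraries, and 33.7 between those. The M2 effect was above that in M0 for 545 genes (4.53%) and below it for 496 (4.13%), 8.66% in all. It was above that in M1 for 551 (4.58%) and below it for 884 (7.35%), 11.9% in all. Of the genes higher in M2, 493 were also higher in M0 (64.4% of the M2 and 26.7% of the M0 genes) and 263 in M1 (34.3% and 17.8%). Of the lower genes, 868 were also lower in M0 (73.5% and 42%) and 378 in M1 (32% and 30.9%). Of all genes tested, 15.4% were higher and 17.2% lower in M0, and 12.3% were higher and 10.2% lower in M1.

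For interferon-stimulated genes the M2 effect was below the M0 effect in 24 of 31 genes (median log2 difference -2.01), and in 20 without Prep-/- replicate 3. For MHC class II it was below in 5 of 10 genes (median -2.36), and in none without that library (median -2.09). In mevalonate synthesis the M2 effect was above the M0 effect in 13 of 22 genes and below the M1 effect in 3, against 6 and 18 without replicate 3. The falls in mitosis genes were deeper in M2 than in M1 in 11 of 40 genes (median log2 difference -0.91), in 6 without that replicate, and the median difference from M0 was 0.04. Cathepsins and related proteases had a larger effect in M2 than in M1 in 4 of 18 genes. Against M0, the M2 effect was above in 2 and below in 2. In M0 itself 10 of the 18 were called higher, with a median log2 fold change of 0.645 against 0.695 in M2.

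**Figure D5:**
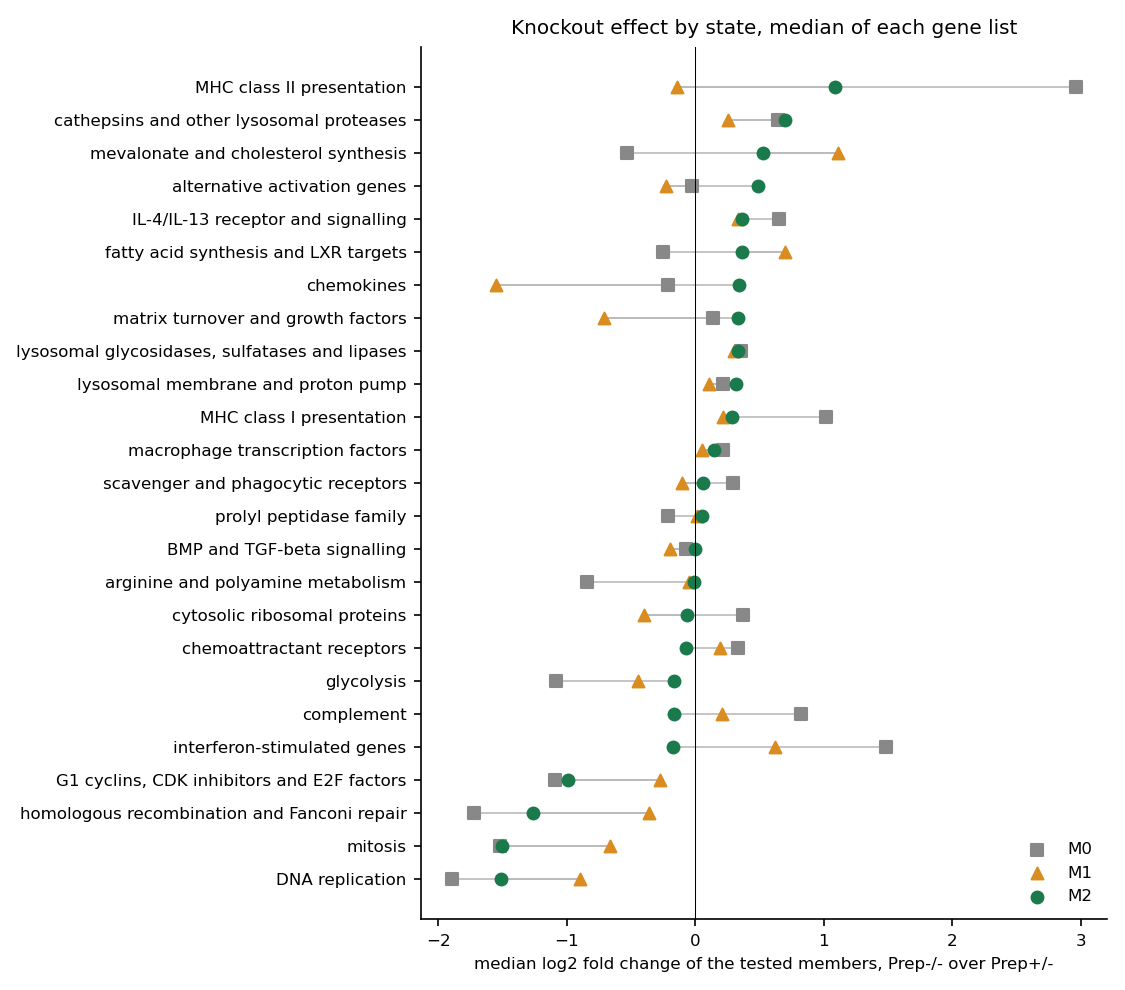
Median log2 fold change of the tested members (x axis) of 25 gene lists (y axis) in M0 (grey squares), M1 (orange triangles) and M2 (green circles). The M2 median lies near the M0 median for mitosis (-1.50 and -1.52) and far from it for interferon-stimulated genes (-0.17 and 1.48).

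In 29 higher and 57 lower genes the M2 effect differed from both other effects in the direction of its call. The examples here were chosen after their values were seen, among those at 5 CPM or more without overlap between the genotypes. Fn1 rose in M2 while its log2 fold change was -0.58 in M0 and -1.74 in M1 (called lower there). Sdc1, the heparan sulfate proteoglycan syndecan-1, rose from 374, 399 and 544 in Prep+/- to 2779, 1686 and 1975 in Prep-/-. Its log2 fold change was 2.29 in M2, 0.91 in M0 and -0.43 in M1. Slamf7, a receptor of the SLAM family, rose from 680.1, 678 and 649 in Prep+/- to 3846, 2820.0 and 2691 in Prep-/-. Its log2 fold change was positive in every state, at 2.22 in M2, 1.11 in M0 and 1.07 in M1. Gm5150 fell from 951, 829 and 931 in Prep+/- to 45.8, 98.4 and 138 in Prep-/- (log2 fold change -3.26 ± 0.25 SE, edgeR adjusted p = 9.59e-07), while its log2 fold change was 0.73 in M0. Ccl12, a monocyte-attracting chemokine, fell from 612, 374 and 772 in Prep+/- to 96.9, 79.3 and 73.0 in Prep-/-. Its log2 fold change was negative in every state, at -2.82 in M2, -0.84 in M0 and -0.52 in M1.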

How the data were processed

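Libraries were made with a stranded mRNA kit. The authors trimmed reads (Trimmomatic 0.36), aligned them to GRCm39 (HISAT2 2.2.1.0), assembled them with stringtie2 and deposited raw counts per gene symbol. The annotation release and the strand setting of counting were not given in the sources used here. Everything after the counts was computed here.

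Genes were filtered with filterByExpr, scaled by TMM and tested with edgeR 4.0.16 (quasi-likelihood, limma 3.58.1, R 4.3.3) on all 18 libraries with 1 coefficient per group (common BCV 0.167). Alternatives were DESeq2 1.42.0, other size factors and filters, glmTreat, the M2 libraries alone, a replicate block and leaving out each library. A floor of 3 counts marks a group as not detected, and such floors cover counting error only. Of 16314 symbols, 15667 matched the annotation by symbol, 7 by an older symbol and 640 did not match. Transcripts were compared with blastn 2.17.0 to find close copies (Chil3, Scd1, Lyz2, Retnla, Cdc6, Tk1, Ctsh, Ndc80, Ifi213, Phgdh, Slc11a1, Oas1g and Bex1 among the genes in the text and figures have one over at least 20% of the transcript at 90% identity). Figures used matplotlib 3.10.9 in Python 3.11.15.

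Named genes were Prep and its family, the genes the study plotted, up to 5 called members of each list, and neighbours of Prep, Dmpk and Id1. Named too were the 12 largest rises and falls at 5 CPM or more and the 8 largest gains and losses in CPM. Both of these rankings were taken only from called genes without overlap between the genotypes. The last were the 5 largest differences between states in each direction. The members, the 25 pathway and 12 marker lists and this rule were chosen with earlier results of these data known. A few genes that the rule names are not reported here. Promoters (250 bases before, 50 after the start) were searched for 6 motifs in 8 gene sets with no test. The E2F words were widened from 2 to 4 after the first set had no match in the replication genes with the largest falls, Rrm2 and Tk1 among them, the printed Cdc6 promoter was chosen because it holds a match, and both sets of shares are given.

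The labels number replicates alike in every group. In M2, libraries with the same number deviated together from their group means, with correlations of 0.289, 0.35 and 0.559, while unlike numbers gave -0.479 to 0.226. Among unlike numbers, replicates 1 and 2 gave 0.201 and 0.226 across genotypes, so the pattern mainly sets replicate 3 apart. Deviations within a group are tied through its mean, so these correlations are not independent of each other. In M0 the same numbers gave -0.432 to -0.0489 and in M1 -0.0128 to 0.145. The pairing was taken up in M2, from these correlations alone, and the block over 18 libraries applied it in all 3 states. On simulated counts for the M2 comparison with 12021 genes, edgeR recovered 81% of 2-fold and 98% of 4-fold changes, and 2.72% of its calls were false. DESeq2 recovered 85% and 99%, with 9.36% false. The simulation drew every library from the Prep+/- M2 means with independent noise and changed 200 genes. It held no library that stood apart and fewer changed genes than were called, so these shares are not those of the real calls. P-values measure the spread between the 3 biological replicates of each group, which the sources do not tie to separate mice.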

Additional observations from a re-analysis of the deposited data

Results flagged for a closer look

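The results below were singled out because the knockout effect in M2 differed from that in another state by the test of the difference itself (edgeR, adjusted p under 0.05, fold over 1.5). Against M0, the M2 effect was above in 545 and below in 496 genes. Against M1, it was above in 551 and below in 884 genes.

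The genes with the largest differences, and those the study plotted, follow with the log2 effect in M2 minus that in the other state. Above M0 were Ak4 (3.76), Pdpn (3.52), Bcl2 (3.29), Rmi2 (3.26) and Ctsk (1.18). Pdpn counted 51.1, 32.8 and 354 in the Prep-/- and 67.7, 88.8 and 143 in the Prep+/- M2 libraries, and Bcl2, a survival gene, 89.4, 74.0 and 426 against 247, 242 and 350, so that replicate 3 lay on the other side of the controls from replicates 1 and 2. Without Prep-/- replicate 3 the difference was 1.72 for Pdpn (edgeR adjusted p = 0.0548), 2.04 for Bcl2 (edgeR adjusted p = 0.0145) and 2.51 for Ak4 (edgeR adjusted p = 0.0399), and Pdpn also lost its call without Prep+/- replicate 1 or 2. Below M0 were Ifi213 (-4.93), Ifit1bl1 (-4.72), Ifi44 (-4.45), Ms4a4a (-4.29), Siglece (-4.08), Il1b (-3.24) and Mrc1 (-1.40). Ifi213, Ifi44 and Ifit1bl1 are interferon-stimulated genes that were called higher in Prep-/- M0 and not called in M2. The differences of Ifi213 and Ifit1bl1 were not called without Prep+/- M2 replicate 1. The difference of Il1b was not called in 4 of the 6 fits without 1 M2 library.

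Above M1 were Mmp9 (5.46), Acpp (4.33), Adgre4 (4.32), Phlda1 (3.98), Thbs1 (3.77) and Chil3 (1.73). Mmp9, a gelatinase, counted 6.39, 14.8 and 465 in the Prep-/- M2 libraries. Without Prep-/- replicate 3 the difference was 1.56 for Mmp9 (edgeR adjusted p = 0.36) and 1.78 for Phlda1 (edgeR adjusted p = 0.266), and neither was called without Prep+/- replicate 1 or 2. Below M1 were Ednrb (-5.51), Phgdh (-4.61), Dmpk (-4.08), Cx3cr1 (-4.00), Cd69 (-3.61) and Mrc1 (-1.26). Ednrb, the endothelin B receptor, was higher in Prep-/- than in Prep+/- BMDMs in M1 and M0 and lower in M2, where the call was lost at much the same fold change (log2 fold change -0.72 to -0.59, edgeR adjusted p = 0.0767 to 0.164) in 5 of the 6 fits without 1 M2 library, the exception being that without Prep-/- replicate 2. Phgdh, the first enzyme of serine synthesis, was higher in M1 and lower in M2, where its call was lost in 4 of these fits (-1.29 to -1.07). Both differences from M1 were called in all 6 fits. The difference of Cx3cr1 was lost in 3 of them, without Prep+/- replicate 1, Prep-/- replicate 1 or Prep-/- replicate 2, and that of Cd69 without Prep+/- replicate 1. Mrc1 was higher in Prep-/- BMDMs in M0 and M1 and lower in M2.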

How the results depend on the processing

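No gene called in M2 was called in the opposite direction under any alternative run, and DESeq2 kept 98% of the calls, other size factors 98.7% and the other filters 94.6% to 96.3%. The 6 M2 libraries fitted alone, without a block, kept 80.2% and gave 639 higher and 992 lower genes. Fits with 1 M2 library left out kept 71% to 90.2%, and glmTreat kept 37.1%. Requiring the fold change in the test (glmTreat) gave 228 higher and 495 lower genes, and adjusted p alone 1394 higher genes. With 1 M2 library left out, 561 to 1046 genes were higher and 865 to 1581 lower, lowest without Prep-/- replicate 1 and highest without Prep-/- replicate 3. With glmTreat the M2 effect differed from M0 in 103 genes (43 above, 60 below) and from M1 in 296 (86 above, 210 below). With 1 library left out, it differed from M0 in 502 to 1449 genes (268 to 830 above, 234 to 619 below, lowest without Prep+/- M0 replicate 2), and from M1 in 975 to 1751 (351 to 673 above, 590 to 1102 below). With the replicate block the M2 counts were 740 higher and 1149 lower, or 753 and 1137 in the M2 libraries alone. The block ended the calls of Bmpr1a, Ctsd and Tmsb4x, added that of Retnla, and in the M2 libraries alone also ended those of Cd24a and Cdkn2b. It changed no other call among the genes named that passed the filter in those fits. Tnf, not called, changed sign to -0.12 and -0.17 with the block over 18 libraries and in M2 alone, to -0.10 without Prep+/- replicate 1 or 2 and lay between -1.26 and 0.83 over all omissions of 1 library, lowest without Prep-/- replicate 3. Alternative values of named genes leave out glmTreat. They cover genes named because they were called, and those the study plotted, so they do not stand for all genes. Of 1790 such values in M2, 1680 kept their direction and their side of the threshold, and 100, in 29 genes, lost the call. The cause was not tested. With 3 libraries a group, genes at a few counts carry wide errors.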
